A study of Drosophila melanogaster with 6 samples.

Results

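The genes described here encode 10 proteins that dock, prime and fuse synaptic vesicles at the active zone: brp, Rim, cac, unc-13, nSyb, Syx1A, Snap25, Syt1, cpx and Rab3. They were chosen by name for their role, and all 10 were found by FlyBase identifier among the 14150 genes of the count table and passed the filter on low counts. RNA-seq libraries of poly(A) RNA were made from larval brains of Drosophila melanogaster, 6 in all and each from a pool of 3 brains. The ctrl larvae were w; worniu-gal4, UAS-gfp-i, and the CIN larvae were w; worniu-gal4, UAS-bub3-i. All larvae were described as late L3 females, collected at 96 h from egg laying and kept at 29 °C. Both groups thus carried the worniu-gal4 driver, which is active in neuroblasts, the neural stem cells, and both carried an RNAi transgene. The ctrl transgene targets gfp, which flies lack. The CIN group, named for chromosomal instability, has a transgene against Bub3, a part of the spindle assembly checkpoint. Each genotype had 3 libraries, 1 in each of the batches 4, 5 and 6.

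At a synapse, vesicles filled with transmitter dock at the active zone, where a protein scaffold holds calcium channels close to them. The vesicle SNARE protein zippers up with a pair of plasma membrane SNARE proteins, and calcium entry triggers the final fusion. In the late larval brain, functional larval neurons already use this machinery, while neurons born in the larva are still immature. The libraries hold neurons, glia and neuroblasts together, so that fewer cells of a type and less RNA per cell cannot be told apart.

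Library totals ran from 24668180 to 26292208 counts, and the members were counted between 1398 times (Snap25 in CIN 4) and 13827 times (brp in CIN 5) per library. Levels are given in CPM, counts relative to the scaled library size. The neuronal gene elav, the glial gene repo and the neuroblast gene wor were present in all libraries, at lowest counts of 5118, 2587 and 914. The libraries ctrl 4 and CIN 5 stood apart in the RNA of the ring gland, an endocrine gland attached to the brain. The sum of its marker list was 65.7 CPM for ctrl 4 and 81.4 CPM for CIN 5, against 1289 to 3959 CPM in the other 4 libraries. CIN 5 also held 243 counts of lncRNA:roX2, an RNA of male flies, against 0 to 6 elsewhere. The other dosage compensation markers were present in all libraries and highest in CIN 5. There lncRNA:roX1 held 965 CPM and msl-2 58.0 CPM, against 153 to 452 and 35.7 to 40.2 CPM elsewhere. Fits of genotype were also run without ctrl 4, without CIN 5 and without both. Correlations, ratios between genes, sums and comparisons of single libraries are given with all 6 libraries only. The targeted gene Bub3 was lower in CIN in all 3 batches, with log2 differences of -0.89, -0.35 and -0.66 and a log2 fold change of -0.63 ± 0.13 (SE). Over all genes, edgeR's quasi-likelihood test did not call it (adjusted p = 0.333) and DESeq2 did (adjusted p = 0.00364).

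In dm6 coordinates, the members lie scattered over the genome, and several span long introns. On the second chromosome are brp at 2R:9503765-9541565, Rab3 at 2R:10721335-10729203 and Syt1 at 2L:2772327-2799979. On the third are nSyb at 3L:1630348-1637752, Snap25 at 3L:24074180-24299205, cpx at 3R:4280221-4304604, Rim at 3R:17872748-17916578 and Syx1A at 3R:24101600-24105763. The channel gene cac lies at X:11931280-11985087 and unc-13 at 4:867824-912331. Of the 10, 8 share no exonic base with another gene of the table. Syx1A shares 447 bp, 10.7% of its exons, with eIF4EHP on the same strand. The exons of unc-13 overlap those of the antisense RNAs asRNA:CR44029 (705 bp) and CR43361 (1463 bp), which had 3961 and 24 counts in all against 63907 for unc-13. Reads of the stretches in unc-13 cannot be assigned with certainty, since the library kit does not mark strand, and those of the stretch in Syx1A lie in exons of both genes on 1 strand, where eIF4EHP had 25070 counts in all and Syx1A 23057. Merged exons ran from 2282 bp in Snap25 to 22598 bp in unc-13, so levels are compared between genes only per kilobase of exon.

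Per kilobase, the vesicle SNARE gene stood above all other members, and the active zone scaffold, priming and channel genes had the lowest medians. The median of nSyb over the 6 libraries was 99.8 CPM per kilobase, with a range of 74.2 to 119, which did not overlap that of any other member. Then came Syt1 with a median of 44.2 CPM per kilobase and Rab3 with 43.2, whose ranges of 38.4 to 53.4 and 34.7 to 54.1 overlapped. Syx1A, cpx and Snap25 followed with medians of 36.5, 35.1 and 34.9 CPM per kilobase, and they too could not be parted from each other or from Rab3 by their ranges. The scaffold gene brp had a median of 24.1 CPM per kilobase and a range of 16.9 to 40.9, which overlapped those of Syt1, Rab3, Syx1A, cpx and Snap25. In CIN 5, brp lay at 40.9 CPM per kilobase, above Syx1A at 37.4, cpx at 33.0 and Snap25 at 32.0. It was above unc-13, at 18.4, in all 6 libraries, although the ranges overlapped. The lowest medians were 17.8 CPM per kilobase for cac and 13.2 for Rim, and cac was above Rim in all 6 libraries.

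**Figure D1:**
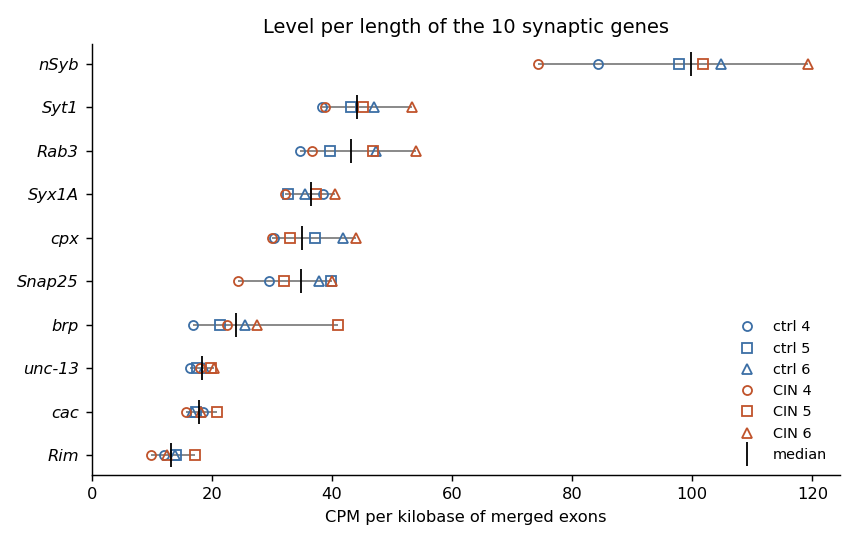
CPM per kilobase of merged exons (x axis) for each of the 10 genes (y axis), with 1 symbol per library, blue for ctrl and orange for CIN, shaped by batch; grey lines span the 6 libraries and black ticks mark medians. nSyb, with a median of 99.8, lies apart on the right, and Rim, with a median of 13.2, is lowest.

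This order places the members at different heights among all tested genes. The median of nSyb per kilobase was at percentile 93.6 of the tested genes, that of Syx1A at percentile 80.2, that of brp at percentile 69.1 and that of Rim at percentile 51.1. Most of these genes have many isoforms, which limits such a comparison. The genes of lowest median, brp, unc-13, cac and Rim, also had the longest merged exons, from 11923 bp in cac to 22598 bp in unc-13. The next longest was cpx, at 11414 bp. The part of length in this order was not tested. With the length of the longest annotated transcript in place of merged exons, the median of unc-13 went from 18.4 to 32.1 CPM per kilobase. It then lay above brp, at 27.0, and cpx, at 41.3, changed places with Syx1A.

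Between CIN and ctrl, no member passed the test. By the quasi-likelihood test of edgeR, with p-values adjusted by Benjamini-Hochberg over 10074 genes, 0 of the 10 were called, where 0.0993% of all tested genes were. DESeq2 and limma-voom called 0 of the 10 too, where DESeq2 called 1.07% of its tested genes. At an unadjusted p under 0.05, 0 members were higher and 0 lower, against 4.13% higher and 3.76% lower of all tested genes. Adjusted p-values of the members ran from 0.67 to 0.999 in edgeR's test. The log2 fold changes had a median of 0.05 and ran from -0.15 for Snap25 to 0.51 for brp, with 7 of 10 above 0, where 51.3% of all tested genes were above 0 and their median was 0.01. For 9 of the 10 genes the 95% interval of the log2 fold change excluded a 2-fold difference in either direction, and brp was the exception. All SE and 95% intervals given here are from the fit of genotype alone, which does not use the pairing by batch. The ranges of ctrl and CIN overlapped for all 10 genes, whereas 7.10% of all tested genes lay wholly higher in CIN and 8.18% wholly lower.

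**Figure D2:**
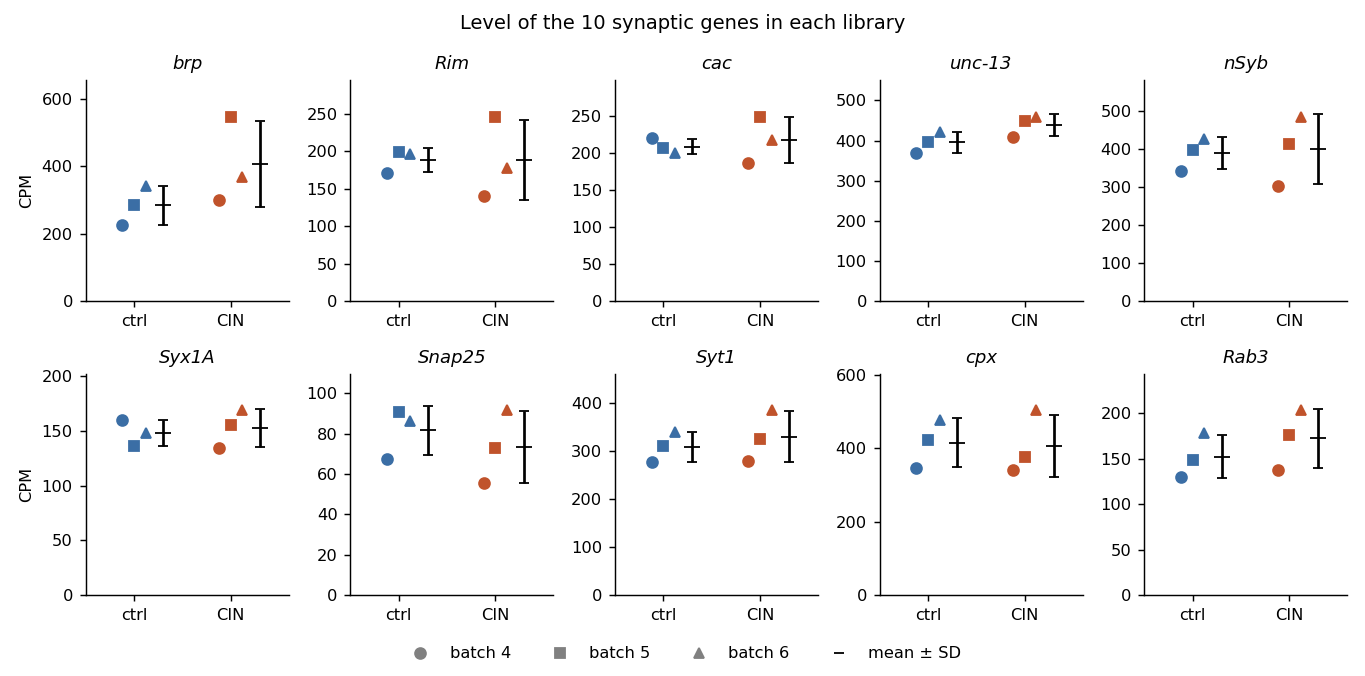
CPM (y axis, from 0) of each gene in the 3 ctrl (blue) and 3 CIN (orange) libraries, with circles, squares and triangles for batches 4, 5 and 6 and black bars for mean ± SD. The ranges of the groups overlap in all 10 panels, and the CIN 5 value of brp, 548 CPM, stands above its other libraries.

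Among the active zone scaffolds, brp showed the widest spread of the 10 genes. It encodes Bruchpilot, the core protein of the electron-dense T-bar in flies. It measured 227, 287 and 343 CPM in the ctrl libraries of batches 4, 5 and 6, while the CIN libraries held 301, 548 and 369 CPM. The CIN value was the higher in each batch, by 0.41, 0.93 and 0.11 on the log2 scale, while ctrl 6 lay above CIN 4. Group means were 285 ± 58.0 CPM for ctrl and 406 ± 127 CPM for CIN (SD, n = 3). The log2 fold change of 0.51 ± 0.26 (SE, 95% interval -0.10 to 1.12) did not pass edgeR's test (adjusted p = 0.67), nor DESeq2's (adjusted p = 0.564), nor edgeR's with the batch as a replicate block (adjusted p = 0.587). The size of the difference depended on single libraries. The log2 fold change of brp was 0.23 without CIN 5, 0.37 without ctrl 4 and 0.09 with neither, but 0.68 without CIN 4 and 0.66 without ctrl 6, and it passed edgeR's test in none of these fits (adjusted p = 0.499 to 0.907).

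Rim, a scaffold that binds Rab3 on vesicles and calcium channels at the membrane, showed no common direction. It measured 171, 199.6 and 197 CPM among ctrl libraries of batches 4, 5 and 6, compared with 141, 246 and 178 CPM among CIN libraries. CIN 4 was thus the lowest and CIN 5 the highest of the 6 libraries, and the ctrl values lay between them. Its log2 fold change was -0.004 ± 0.21 (SE, 95% interval -0.50 to 0.49; edgeR, adjusted p = 0.999).

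The channel and priming genes varied less. The gene cac encodes the pore-forming subunit of the presynaptic calcium channel, and measured 220.1, 207 and 199.8 CPM in the ctrl libraries of batches 4, 5 and 6, while the CIN libraries held 187, 249 and 217 CPM. As for Rim, CIN 4 was lowest and CIN 5 highest. The log2 fold change of cac was 0.06 ± 0.14 (SE, 95% interval -0.26 to 0.38; edgeR, adjusted p = 0.926). The priming factor gene unc-13 had the smallest spread, with 369, 397 and 422 CPM among ctrl libraries of batches 4, 5 and 6, compared with 409, 449.7 and 459 CPM among CIN libraries. CIN was above ctrl in each batch by 0.15, 0.18 and 0.12 on the log2 scale, and the groups overlapped only through CIN 4 and ctrl 6. Its log2 fold change of 0.15 ± 0.12 (SE, 95% interval -0.13 to 0.43) did not pass edgeR's test (adjusted p = 0.766).

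The SNARE genes differed between the genotypes by less than the spread between libraries. The vesicle SNARE gene nSyb, which encodes neuronal synaptobrevin, measured 343, 398 and 427 CPM in the ctrl libraries of batches 4, 5 and 6, while the CIN libraries held 302, 414 and 485 CPM. Both genotypes were lowest in batch 4 and highest in batch 6, and CIN held the lowest and the highest value. Syntaxin 1A, encoded by Syx1A, is a SNARE of the plasma membrane, and its gene measured 160.4, 136 and 148 CPM among ctrl libraries, compared with 134, 156 and 169 CPM among CIN libraries. Its partner gene Snap25 measured 67.5, 90.8 and 86.4 CPM in the ctrl libraries, while the CIN libraries held 55.7, 73.1 and 91.5 CPM. CIN lay below ctrl in batches 4 and 5 and above it in batch 6. The log2 fold changes were 0.04 ± 0.20 for nSyb, 0.05 ± 0.13 for Syx1A and -0.15 ± 0.21 for Snap25 (SE; edgeR, adjusted p = 0.969, 0.942 and 0.851). Their 95% intervals were -0.42 to 0.51, -0.26 to 0.35 and -0.64 to 0.34.

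The genes of the calcium sensor, the SNARE-binding protein complexin and the vesicle GTPase followed the batches more than the genotype. Syt1, which encodes the calcium sensor of fast release, measured 276, 310.1 and 338 CPM among ctrl libraries of batches 4, 5 and 6, compared with 279, 325 and 384 CPM among CIN libraries. Batch 4 was lowest and batch 6 highest in both genotypes, and CIN was slightly above ctrl in each batch. Complexin both clamps and promotes fusion, and its gene cpx measured 346, 424 and 477 CPM in the ctrl libraries, while the CIN libraries held 342, 377 and 503 CPM. Rab3, a GTPase of the vesicle surface that in flies also affects how brp protein is spread over active zones, measured 130.4, 149 and 178 CPM among ctrl libraries, compared with 138, 176 and 203 CPM among CIN libraries. Again batch 4 was lowest and batch 6 highest in each genotype for both genes. The log2 fold changes were 0.10 ± 0.16 for Syt1, -0.03 ± 0.19 for cpx and 0.18 ± 0.18 for Rab3 (SE; edgeR, adjusted p = 0.883, 0.977 and 0.808). Their 95% intervals were -0.28 to 0.47, -0.49 to 0.43 and -0.26 to 0.61. The value of Rab3 was 0.03 without CIN 6, 0.07 without ctrl 4 and 0.31 without CIN 4.

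**Figure D3:**
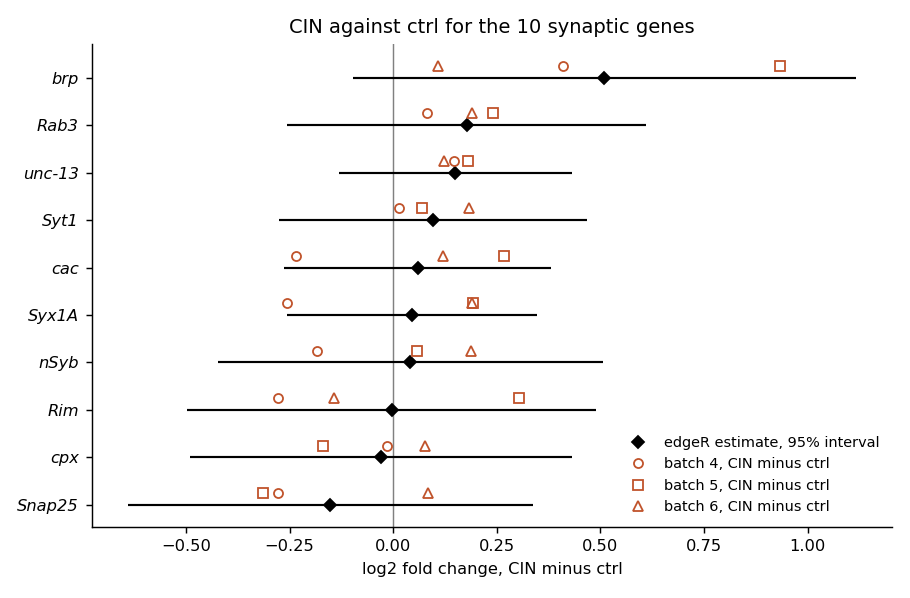
Log2 fold change of CIN over ctrl (x axis) for each gene (y axis): black diamonds with lines are edgeR estimates with 95% intervals, and open orange symbols are the differences within batches 4, 5 and 6. All intervals include 0, and that of brp reaches furthest, from -0.10 to 1.12.

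Within batches the members did not move alike. In batch 4, 6 of 10 were lower in CIN, and the median difference was -0.10 on the log2 scale. In batches 5 and 6, 8 and 9 of 10 were higher in CIN, with medians of 0.19 and 0.12. The same direction in all 3 batches was seen in 4 genes, brp, unc-13, Syt1 and Rab3, all higher in CIN, where 17.5% of all tested genes were higher in each batch. No member was lower in all 3, where 18.5% of all tested genes were. With the batch as a replicate block, edgeR called 0 members and 0 genes in all, and 0 members were at an unadjusted p under 0.05.

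The clearest order among the 6 libraries was by batch. In 6 of the 10 genes, Rim, nSyb, Snap25, Syt1, cpx and Rab3, both batch 4 libraries lay below all 4 others, which held for 12.4% of all tested genes. Each member had its lowest library in batch 4, which was CIN 4 for 6 of them and ctrl 4 for brp, unc-13, Syt1 and Rab3. A fit of genotype and batch, chosen after these values were seen, gave log2 differences of batch 6 over batch 4 of 0.54 for Snap25, 0.51 for cpx, 0.50 for Rab3, 0.50 for nSyb and 0.38 for Syt1. No gene passed edgeR's test of batch, adjusted by Benjamini-Hochberg, neither a member (lowest adjusted p = 0.491) nor any other of the 10074. At an unadjusted p under 0.05 were 2 members, Rab3 and Snap25, where 9.69% of all tested genes were. The labels call these numbers batches and the series places the replicates on different days. What else differed between the days was not tested.

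The highest library differed between the members. The scaffold genes brp and Rim and the channel gene cac were highest in CIN 5. The other 7 members, among them the priming gene unc-13, were highest in CIN 6. In mean log2 CPM, brp, Rim and cac together lay 0.17 above nSyb, Syt1 and Rab3 in CIN 5, and below them by -0.18, -0.21 and -0.31 in ctrl 4, 5 and 6 and by -0.18 and -0.47 in CIN 4 and 6. These offsets also carry the genes' lengths, so only their change between libraries can be read, and CIN 5 had the highest of the 6. The first group is the set of genes that peaked in CIN 5, so its high offset there is no separate result. The genes unc-13, cpx, Syx1A and Snap25 were in neither group. CIN 5 is also a library with little ring gland RNA and with lncRNA:roX2 counts, and their part in this pattern was not tested.

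**Figure D4:**
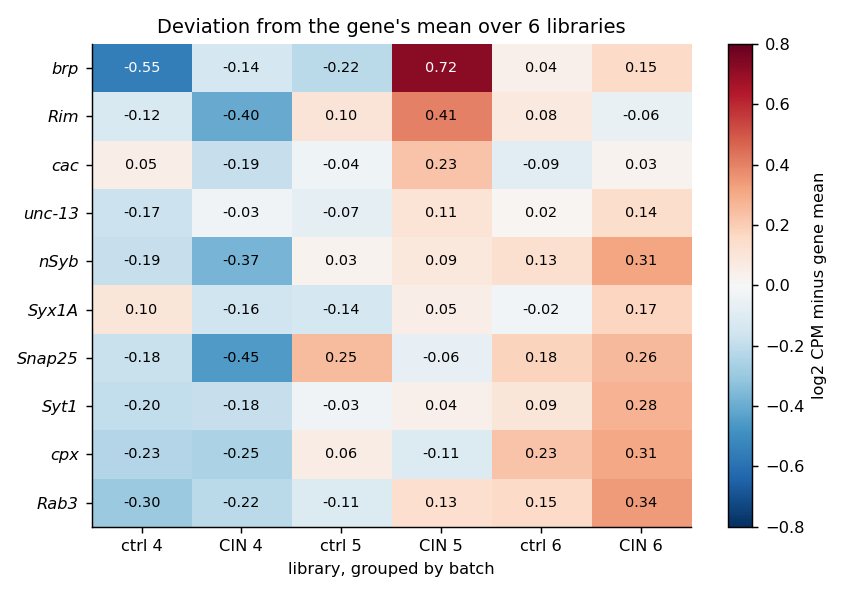
Log2 CPM of each gene (rows) in each library (columns, grouped by batch) minus the gene's mean over the 6 libraries; red is above and blue below that mean. Most cells of ctrl 4 and CIN 4 are below 0, brp, Rim and cac peak in CIN 5, and nSyb, Snap25, Syt1, cpx and Rab3 peak in CIN 6.

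Across the 6 libraries, which share batches and genotypes, the closest pair was that of the vesicle genes Syt1 and Rab3. Pearson's r of log2 CPM over the 6 libraries, given as a description, was 0.976 for Syt1 and Rab3, 0.947 for Syt1 and nSyb and 0.908 for Syt1 and cpx. It was 0.890 for nSyb and Snap25, but 0.312 for the plasma membrane partners Snap25 and Syx1A. Closeness was not limited to vesicle genes. The priming gene unc-13 had 0.907 with Rab3, 0.867 with brp and 0.825 with Syt1, and Snap25 had 0.885 with cpx. Of the 45 pairs, 11 had an r above 0.8, the median was 0.562, and the lowest, -0.024, was that of cac and cpx. The share of all pairs of tested genes above 0.8 was not computed, so this count is not a trait of the members. Each gene was also set against the mean of the other 9, which gave an r from 0.483 for Syx1A to 0.936 for nSyb.

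The proportions of the members to each other were examined as ratios per kilobase within a library, a choice made after the values were seen. The ratio of brp to Rim was 1.41, 1.53 and 1.86 in ctrl 4, 5 and 6 and 2.28, 2.37 and 2.21 in CIN, so that the genotypes did not overlap. The SNARE genes nSyb and Snap25 stood at 2.85, 2.46 and 2.77 in ctrl and 3.04, 3.18 and 2.97 in CIN. Both had p = 0.1 in a two-sided exact permutation test over the libraries, which is the smallest p that 3 against 3 can give, and an adjusted p of 0.563 over the 45 pairs. Of all 45 ratios, 8 did not overlap between genotypes, or 17.8%, and 14.9% of the ratios of all pairs of tested genes did not. The log2 level of brp relative to the mean of the other 9 members was 0.33 ± 0.19 in ctrl and 0.79 ± 0.35 in CIN (SD, n = 3; exact permutation test, p = 0.2). By library it was 0.14, 0.34 and 0.52 in ctrl 4, 5 and 6 and 0.66, 1.18 and 0.51 in CIN, so that CIN 6 did not lie above ctrl 6.

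Genes outside the 10 were ranked by how closely their log2 CPM followed the mean log2 CPM of the members over the 6 libraries, among 7836 genes of at least 5 CPM. The 5 closest were CG32206, dpr15, PK2-R1, DIP-epsilon and CCHa2, with Pearson's r of 0.996 to 0.991. Of these, dpr15 and DIP-epsilon encode cell surface proteins of interacting immunoglobulin families, PK2-R1 encodes a neuropeptide receptor and CCHa2 a peptide hormone. PK2-R1 measured 9.49, 14.0 and 15.3 CPM in the ctrl libraries of batches 4, 5 and 6, while the CIN libraries held 8.77, 20.6 and 21.5 CPM, again lowest in batch 4. For the 3 members of widest spread, the closest genes were ap for brp (r = 0.998), 7B2 for Snap25 (r = 0.992) and l(3)neo38 for Rim (r = 0.993). All of these r are the highest of a search over 7836 genes with only 6 libraries, and none was tested. The LIM homeodomain gene ap, which is expressed in imaginal discs and in parts of the optic lobe, measured 60.8, 79.8 and 104.1 CPM among ctrl libraries, compared with 84.3, 189.9 and 109 CPM among CIN libraries. Like brp, it was highest in CIN 5. The other 6 imaginal disc markers had a sum of 173 CPM for CIN 5 and of 120 to 141 CPM elsewhere, and their part in the level of brp was not tested.

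A further 4 lists placed the members in their pathway, and 0 of their 77 tested genes passed edgeR's test, where 0.0993% of all tested genes did. The list of other active zone and priming genes had 17 of 17 log2 fold changes above 0, with a median of 0.19, where 51.3% of all tested genes were above 0. Only CASK, which encodes a membrane-associated scaffold kinase, was at an unadjusted p under 0.05. It measured 176, 152 and 188 CPM in the ctrl libraries of batches 4, 5 and 6, while the CIN libraries held 200.2, 230.3 and 219 CPM, with CIN above ctrl in every library and a log2 fold change of 0.33 ± 0.12 (SE; edgeR, adjusted p = 0.603; DESeq2, adjusted p = 0.354). Srpk79D, a kinase gene known in flies for keeping brp protein from assembling in axons, had 0.35 ± 0.22 and was highest in CIN 5, at 123 CPM. The vesicle-transporting kinesin gene unc-104 had 0.16 ± 0.24, and Cadps, which acts in dense core vesicle release, 0.02 ± 0.19. The median of the active zone list was 0.07 when ctrl 4 was left out, 0.09 without CIN 5, 0.08 without CIN 6, 0.36 without CIN 4 and 0.03 with neither ctrl 4 nor CIN 5.

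Vesicle proteins and SNARE cofactors were mixed, with 13 of 20 above 0 and a median of 0.07, or -0.10 without both ctrl 4 and CIN 5. In this list 1 gene was at an unadjusted p under 0.05, Rab27, a GTPase gene of secretory vesicles. It measured 28.5, 22.1 and 17.1 CPM among ctrl libraries, compared with 15.7, 11.96 and 15.5 CPM among CIN libraries, lower in CIN in each batch, with a log2 fold change of -0.65 ± 0.22 (SE; edgeR, adjusted p = 0.603; DESeq2, adjusted p = 0.334). The cysteine string protein gene Csp had -0.08 ± 0.18, Syt4 0.19 ± 0.21 and Sytbeta 0.28 ± 0.37. Of the genes of vesicle endocytosis, 16 of 20 were above 0, with a median of 0.14, and 0 were at an unadjusted p under 0.05 or called by DESeq2. The clathrin heavy chain gene Chc had 0.21 ± 0.12, Past1 0.28 ± 0.14, sky -0.29 ± 0.25 and the chaperone gene Hsc70-4, which strips clathrin coats, -0.06 ± 0.18.

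SNAREs of other membranes, which every cell uses, had 12 of 20 above 0 and a median of 0.00, and 2 were higher at an unadjusted p under 0.05. Syx7, a syntaxin of endosomes, measured 62.7, 57.9 and 60.4 CPM in the ctrl libraries of batches 4, 5 and 6, while the CIN libraries held 77.6, 73.9 and 75.7 CPM. The genotypes did not overlap, as for 7.10% of all tested genes in this direction, and the log2 fold change was 0.33 ± 0.10 (SE; edgeR, adjusted p = 0.549; DESeq2, adjusted p = 0.103). The gene of the SNARE Ykt6 had 0.001 ± 0.13, and Membrin -0.33 ± 0.19. Both batch 4 libraries were lowest for 9 of the 17 active zone and priming genes, 11 of the 20 vesicle genes and 8 of the 18 neuron markers. They were lowest for 5 of the 20 endocytosis genes and 2 of the 20 SNAREs of other membranes, where 12.4% of all tested genes showed this order.

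**Figure D5:**
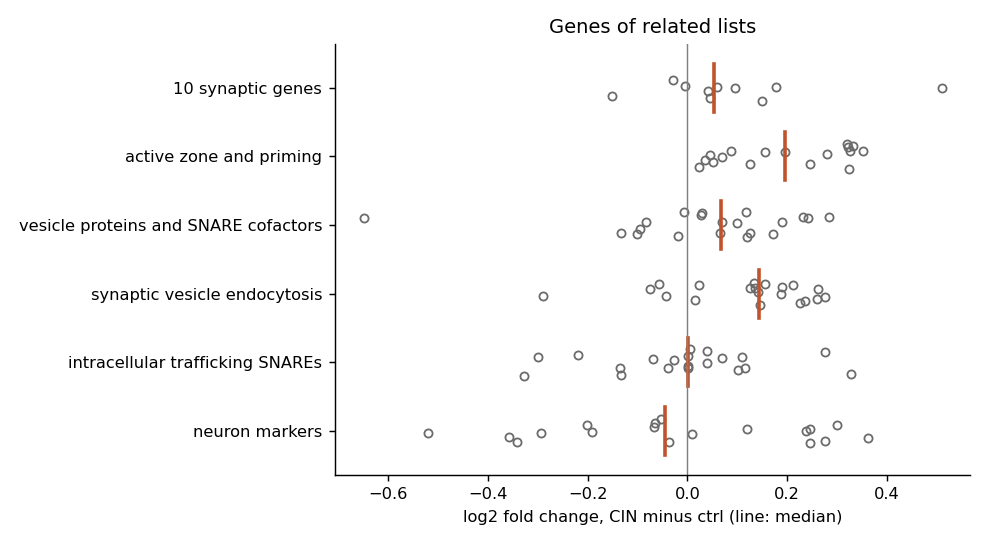
Log2 fold change of CIN over ctrl (x axis) for the 10 genes, 4 related lists and the neuron markers (y axis), with 1 circle per gene and an orange line at each median. The medians lie between -0.05 for the neuron markers and 0.19 for the active zone and priming list.

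Marker lists of other cells were set beside these values. The 18 neuron markers had a median log2 fold change of -0.05 and the 10 neuroblast markers -0.43, with 0 called in either list and 2 in each at an unadjusted p under 0.05, all lower. By DESeq2, 1 neuron marker was called and no neuroblast marker. The 5 markers of ganglion mother cells and newborn neurons had a median of -0.51, and their sum was 4567 to 5260 CPM in ctrl and 1078 to 1921 CPM in CIN. Most of that sum was pros, which encodes Prospero, a factor that ends neuroblast self-renewal in the daughter cell, and pros was the only one of the 5 called, lower in CIN. It measured 4808, 4160 and 4551 CPM in ctrl 4, 5 and 6, and the CIN libraries held 759, 1299 and 909 CPM, without overlap. Its log2 fold change was -2.19 ± 0.22 (SE; edgeR, adjusted p = 0.0422; DESeq2, adjusted p = 6.78e-20). The edgeR call was lost with the replicate block (adjusted p = 0.162) and without any single library other than CIN 5 (adjusted p = 0.0612 to 0.33), while the log2 fold change stayed between -2.44 and -2.03. The mean log2 CPM of the members lay 0.07, 0.06 and 0.13 above that of the neuron markers in ctrl 4, 5 and 6 and 0.24, 0.19 and 0.18 above it in CIN. These offsets likewise carry gene length and are read only between libraries. The genotypes did not overlap in them, which was not tested and has no share over other lists beside it. Of the neuron markers, 10 of 18 were lower in CIN and 8 higher, with fne lowest at a log2 fold change of -0.52. The sum over neuroblast markers was 1321 CPM for ctrl 4 and 741 CPM for CIN 4, and the other 4 libraries held 935 to 1001 CPM. Of these 10 markers, 9 had a log2 fold change below 0, and SoxN, at 0.38, was the 1 above. SoxN weighs heavily in the sum, with 208 to 310 CPM in ctrl and 280 to 404 CPM in CIN. In CIN 5 it gave 404 of the 1001 CPM. The 14 glia markers had their highest sum in CIN 4, at 2815 CPM, and their lowest in CIN 5, at 1750.5 CPM. Their log2 fold changes were above 0 for 12 and below for 2, with a median of 0.20. Of all tested genes, 51.3% were above 0. Only htl was at an unadjusted p under 0.05, with 0.62 ± 0.12 (SE; edgeR, adjusted p = 0.287; DESeq2, adjusted p = 0.00241). The 12 muscle markers ranged from 283 to 492 CPM in sum, highest in CIN 4. The 8 hemocyte markers summed to between 401 CPM in CIN 5 and 1660 CPM in CIN 4. The sum of the 8 fat body and oenocyte markers was 507 to 1981 CPM in ctrl and 409 to 515 CPM in CIN, highest in ctrl 5, and all 8 log2 fold changes were below 0, with 2 at an unadjusted p under 0.05 and 0 called. Those 2 rested on single ctrl libraries. Cyp4g1 measured 1409 CPM in ctrl 5 and 0.76 to 1.17 CPM elsewhere, and Fbp2 48.1 CPM in ctrl 4 and 1.50 to 9.74 CPM elsewhere. Lsp1alpha, Lsp1beta, Lsp1gamma, Lsp2 and Fbp1 were likewise highest in ctrl 4. Of these, Lsp1beta held 178 CPM there and 4.59 to 28.5 CPM elsewhere. FASN1, at 315 to 518 CPM, made up much of the sum in every library but ctrl 5. Of these lists, no marker was at 0 in all 6 libraries. The part of these cells in the members' levels was not tested.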

How the data were processed

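The deposited table holds raw, whole-number counts for each gene in each library. The submitters' processing notes name Trim Galore, STAR 2.7.10a, featureCounts and the build dm6, and the sources used here give neither their settings nor the annotation release. Libraries came from poly(A) RNA with 13 cycles of amplification, per the labels' protocols, so that counts are not independent molecules. Symbols were matched by FlyBase identifier for 14074 of 14150 genes, and 181 of 187 listed symbols were found. Coordinates and exon lengths came from an Ensembl annotation of BDGP6, the assembly of dm6, counted from 1. The test of genotype was run in R 4.3.3 with edgeR 4.0.16: filterByExpr (10074 genes), TMM, glmQLFit and glmQLFTest on genotype alone, two-sided, Benjamini-Hochberg adjustment over all genes, threshold 0.05. The SE was the log2 fold change over the square root of F. CPM uses TMM-scaled library sizes, and log2 CPM a prior count of 2. Within-batch differences are of log2 CPM.

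Checked on simulated data of 9920 genes, the test recovered 45 of 100 genes changed 2-fold and 95 of 100 changed 4-fold. It also called 6 unchanged genes. Differences of 2-fold or less could thus often go uncalled. The batch number and the different days in the series' text pair the libraries. Same-numbered libraries deviated from their group means with a correlation across genes of 0.04, -0.06 and 0.17 in batches 4, 5 and 6, and across the 10 members of 0.595, 0.127 and 0.180. Libraries of unlike number gave -0.20 to 0.10 across genes and -0.58 to 0.21 across the members. Other settings were RLE, unscaled library sizes, all genes with a count, genes of at least 1 CPM in 3 libraries, limma-voom (limma 3.58.1), DESeq2 1.42.0, the block and left-out libraries. Robust estimation, the batch test, the ratios and the settings for pros were added after the values were seen. The members and lists were chosen with earlier results of these data known. Genes named outside the members are, from each pathway list, the 2 most abundant and the 2 of largest log2 fold change, and the genes closest in pattern. With 3 libraries per group, the p-values rest on how far pools of brains differ.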

Additional observations from a re-analysis of the deposited data

How the results depend on the processing

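In all 15 other settings, 0 of the 10 members were called, and the median log2 fold change of the members ran from -0.01 to 0.18 without single libraries and from 0.01 to 0.09 otherwise. The signs of brp, unc-13 and Rab3 held in all 15, and their ranges with single libraries left out were 0.23 to 0.68, 0.10 to 0.20 and 0.030 to 0.31. The other 7 changed sign in at least 1 setting. Rim had 0.0014 with RLE and with DESeq2 and 0.041 without TMM, and cpx 0.015 without TMM. Without both ctrl 4 and CIN 5, cac had -0.013 and nSyb -0.069. For these 7, the ranges with single libraries left out were -0.25 to 0.17 for Rim, -0.22 to 0.083 for cpx, -0.13 to 0.21 for nSyb, -0.043 to 0.13 for Syx1A, -0.35 to 0.011 for Snap25, -0.041 to 0.20 for Syt1 and -0.052 to 0.16 for cac. Over all genes, 5 were called higher and 5 lower. DESeq2 called 52 higher and 55 lower, the replicate block 0 and 0, and leaving out single libraries 0 higher and 1 to 3 lower. The 1 CPM filter called 10 lower, robust estimation 9, and leaving out both ctrl 4 and CIN 5 called 3. The causes of these moves were not tested. The replicate block changed no member's call. Counting error is small at these depths, and the 3 libraries per group limit the precision.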

Other observations

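Some relatives of the members that are used more widely are given here with values chosen after they were seen. Syb, the broadly expressed synaptobrevin gene, measured 113, 117 and 103 CPM among ctrl libraries of batches 4, 5 and 6, compared with 156, 96.8 and 110.3 CPM among CIN libraries, and was highest in CIN 4, where nSyb was lowest at 302 CPM. Snap24 measured 60.1, 57.4 and 55.8 CPM in the ctrl libraries, while the CIN libraries held 60.3, 48.0 and 68.5 CPM. Esyt2, an extended synaptotagmin gene, had the widest relative range of the vesicle list, from 13.4 CPM in CIN 5 to 88.7 CPM in CIN 4, with 66.8, 29.6 and 37.1 CPM in ctrl and 37.7 CPM in CIN 6. Its log2 fold change was 0.07 (edgeR, adjusted p = 0.985).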
